A study of Homo sapiens with 6 samples.

Results

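Hepatocytes take and keep their identity through a small set of transcription factors that regulate each other and, together, the genes of the liver. HNF4A and HNF4G are orphan nuclear receptors, FOXA1, FOXA2 and FOXA3 are forkhead proteins that can open closed chromatin, CEBPA is a leucine zipper factor of metabolic genes, ONECUT1 (also called HNF6) is a homeodomain factor of liver and bile duct development, and PROX1 is a homeobox factor that in hepatocytes binds HNF4A and NR5A2 as a co-repressor. The factors bind many shared enhancers, so that the level of each can matter for genes such as albumin and the apolipoproteins. These 8 genes were taken by symbol from the 52408 genes of the count table, and all 8 were found.

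HepG2, an established line from a human liver tumour with hepatocyte-like features, was grown for 24 h with ellagic acid (EA), a polyphenol of berries and nuts, at 50 µM or with an equal volume of its solvent dimethyl sulfoxide (DMSO). No genotype or other agent separated the groups, and both came from the same line. RNA was sequenced from 3 libraries per group. Whether the libraries of a group were separate cultures is not stated in the labels, so the p-values reflect the spread among these libraries alone, and that spread may be technical.

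Libraries held 22987425 to 25973621 reads with DMSO and 15738089 to 19202292 with EA, so the EA libraries were shallower; the part of depth in the results was not tested. Levels are CPM, read counts scaled to library size with a TMM correction, and are relative to the other genes in a library. EA replicate 3 lay apart from the other EA libraries on the second principal component (33.8 against -18.5 and -14.2, 2.49% of the variance). Calls rest on edgeR (quasi-likelihood F test, p-values adjusted after Benjamini and Hochberg over 15648 genes, threshold 0.05). At that threshold 81.0% of the genes were called, and 40.5% were lower and 40.5% higher with EA. The summed level of 9 hepatocyte markers was 47147 to 49583 CPM with DMSO and 12201 to 12738 CPM with EA. Most of the DMSO sum was 1 gene, APOB, which went from 29447 ± 1102 to 3080 ± 692 CPM (SD, n = 3 per group). Of the 9 markers 8 were called lower and 1, APOA1, higher.

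Because the factors control each other, the sequences just upstream of the annotated starts are shown for HNF4A, which has a distal and a proximal promoter, for ONECUT1, and for LINC00261, the long non-coding neighbour of FOXA2. They were printed because HNF4A had the most reads of the 8 genes, ONECUT1 the largest change among the well-read ones, and LINC00261 a larger change than FOXA2. Each is the 250 bases before the start, 5′ to 3′ on the gene's own strand, from RefSeq (GRCh38.p14). Capitals mark exact matches, on either strand, to a FOXA motif (TGTTTAC), an ONECUT motif (ATTGAT) or an HNF4 motif (CAAAGTCCA).
HNF4A distal promoter, chr20:44355449-44355698, plus strand: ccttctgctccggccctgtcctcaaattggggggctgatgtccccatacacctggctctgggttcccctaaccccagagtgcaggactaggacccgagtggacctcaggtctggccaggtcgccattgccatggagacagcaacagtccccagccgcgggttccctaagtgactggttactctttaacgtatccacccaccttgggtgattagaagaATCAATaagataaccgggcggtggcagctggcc
HNF4A proximal promoter, chr20:44400989-44401238, plus strand: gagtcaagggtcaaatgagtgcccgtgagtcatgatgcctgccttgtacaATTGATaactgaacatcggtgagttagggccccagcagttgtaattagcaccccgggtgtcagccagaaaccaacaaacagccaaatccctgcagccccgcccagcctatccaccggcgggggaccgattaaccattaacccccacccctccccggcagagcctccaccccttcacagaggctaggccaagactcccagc
ONECUT1, chr15:52790337-52790586, minus strand: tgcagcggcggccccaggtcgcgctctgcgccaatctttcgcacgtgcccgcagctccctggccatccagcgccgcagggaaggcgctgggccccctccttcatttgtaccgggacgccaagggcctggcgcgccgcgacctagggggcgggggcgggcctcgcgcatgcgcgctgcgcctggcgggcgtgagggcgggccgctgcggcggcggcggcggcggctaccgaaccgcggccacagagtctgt
LINC00261, chr20:22578643-22578892, minus strand: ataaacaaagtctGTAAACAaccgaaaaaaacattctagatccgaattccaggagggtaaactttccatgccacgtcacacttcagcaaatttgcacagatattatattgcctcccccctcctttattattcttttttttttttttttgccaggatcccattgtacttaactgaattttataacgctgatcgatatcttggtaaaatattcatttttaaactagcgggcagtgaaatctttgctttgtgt

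The distal HNF4A window holds 1 ONECUT match, which begins 33 bases before the start. The proximal window holds 1 ONECUT match at 200 bases before the start. The LINC00261 window holds 1 FOXA match at 237 bases. Of the 5 factor genes with a RefSeq entry, only HNF4A, which has 2 windows here, had a match. The windows of ONECUT1, CEBPA, FOXA1 and FOXA3 held none of the 3 motifs. Among 34943 annotated windows of the same length, 5.58% hold the ONECUT motif, 2.98% the FOXA motif and 0.326% the HNF4 motif. Those windows were not matched for base composition. The motifs were chosen after the promoters had been read, so these shares are no test of the matches. No 2 of the marked matches overlap, and a match describes letters only, not binding. Gene counts do not separate transcripts from the 2 HNF4A promoters.

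With EA, transcripts of HNF4A, of all 3 FOXA genes, of ONECUT1 and of CEBPA were lower, PROX1 was higher and HNF4G did not pass the test. That is 6 of 8 lower and 1 of 8 higher, against 40.5% lower and 40.5% higher over all tested genes. In bulk RNA, fewer cells of a kind and less RNA per cell cannot be told apart. The 7 of 8 called in either direction is close to the background of 81.0%. The EA and DMSO libraries did not overlap in the same 7 genes, against 82.9% of all tested genes (41.5% with EA lower and 41.4% with EA higher). The median log2 fold change of the 8 genes was -0.40, beside 0.00441 over all tested genes. CEBPA passed the filter on low counts only through the DMSO libraries, where it was higher, and the other 7 passed in both groups. The 8 genes fall into a pair that fell more than 4-fold (ONECUT1 and CEBPA) and a set of modest changes, as the plot of fold changes shows.

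**Figure D1:**
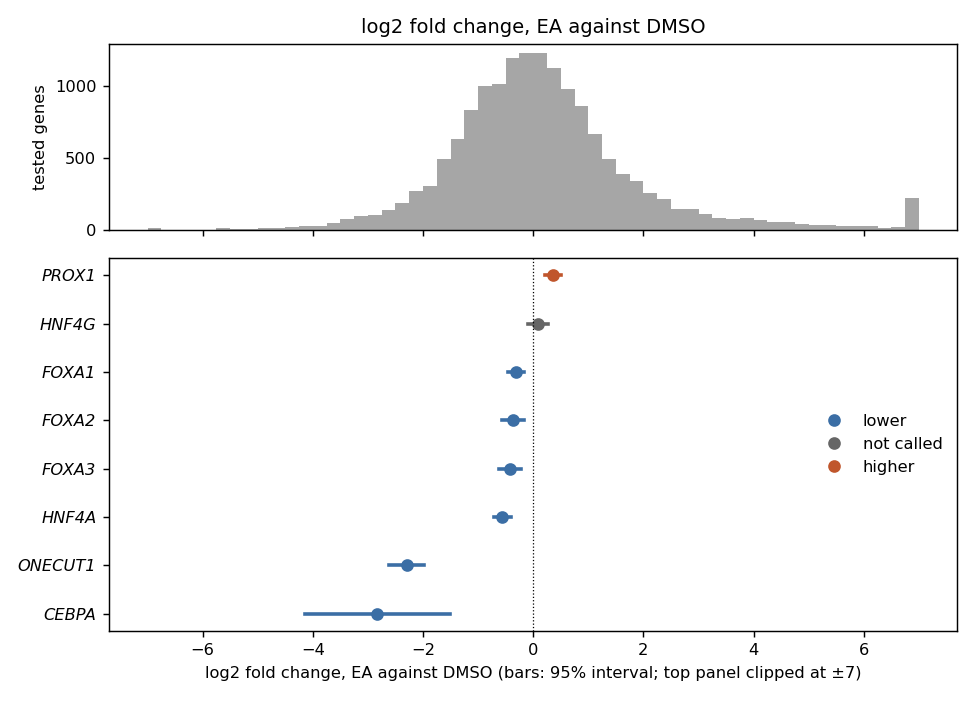
Top: number of tested genes by log2 fold change, EA against DMSO (values beyond ±7 are drawn in the end bins). Bottom: log2 fold change of each hepatocyte transcription factor (point) with its 95% interval (bar), coloured by the call at an adjusted p of 0.05; ONECUT1 and CEBPA lie at -2.30 and -2.83, the other 6 between -0.56 and 0.35.

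HNF4A (ENSG00000101076) stands at the centre of the network, since its loss in hepatocytes removes most of the differentiated programme. Its levels were 280, 281 and 266 CPM in the DMSO libraries and 200.2, 193 and 168 CPM in the EA libraries. Every EA library was below every DMSO library. The mean went from 276 ± 8.21 to 187 ± 16.8 CPM (SD, n = 3 per group), a log2 fold change of -0.56 (SE 0.07, 95% interval -0.72 to -0.41) and an adjusted p of 3.38e-06 by edgeR. The level fell by 32.2%. The change was moderate for these data, since 32.7% of tested genes had a lower log2 fold change.

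HNF4G (ENSG00000164749) encodes the second HNF4 receptor, which binds much the same DNA sites and is best known from the gut. Its levels were 26.9, 25.01 and 25.6 CPM with DMSO and 28.6, 25.6 and 27.9 CPM with EA, so that the groups overlapped. The log2 fold change was 0.08 (SE 0.08, adjusted p = 0.382 in edgeR's test), with a 95% interval from -0.10 to 0.26. Within each library HNF4A had 10.4, 11.2 and 10.4 reads per HNF4G read with DMSO, and 6.99, 7.51 and 6.02 with EA. This ratio does not depend on scaling and was lower in every EA library than in every DMSO library. The mean log2 ratio with EA minus that with DMSO was -0.65 (exact two-sided permutation test p = 0.10, the smallest that 3 against 3 can give; 0.15 after Benjamini-Hochberg adjustment over 6 ratios).

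The 3 FOXA genes are the pioneer factors of the liver, needed to start the hepatic programme in the embryo. FOXA1 (ENSG00000129514) stood at 87.5, 93.3 and 85.9 CPM with DMSO and at 69.9, 73.1 and 72.4 CPM with EA. FOXA2 (ENSG00000125798) stood at 51.9, 54.6 and 49.7 CPM with DMSO and at 43.2, 43.1 and 34.7 CPM with EA. FOXA3 (ENSG00000170608), the member that is most abundant in adult liver, stood at 36.3, 38.8 and 38.5 CPM with DMSO and at 29.2, 31.2 and 24.2 CPM with EA. In all 3 the EA libraries lay below the DMSO libraries, and for FOXA2 and FOXA3 the lowest value came from EA replicate 3.

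The falls of the 3 FOXA genes were small and alike in size. Log2 fold changes were -0.31 (SE 0.07) for FOXA1, -0.37 (SE 0.09) for FOXA2 and -0.43 (SE 0.09) for FOXA3, and edgeR's adjusted p lay between 0.000575 and 0.00152. When a change had to exceed 1.2-fold, FOXA1 and FOXA2 no longer passed (adjusted p = 0.131 and 0.0595 in edgeR's test against a minimum fold), while FOXA3 did. The ratio of FOXA1 to FOXA2 reads was 1.71 ± 0.0205 with DMSO and 1.80 ± 0.251 with EA (SD, n = 3 per group; exact permutation test, two-sided p = 0.90). The ratio of FOXA3 to FOXA2 reads was 0.728 ± 0.0406 and 0.699 ± 0.0233 (n = 3 per group; exact permutation test, two-sided p = 0.40). A shift in the balance of the 3 genes was thus not detectable, and neither p shows that the balance stayed equal. EA replicate 3 had the highest FOXA1 to FOXA2 ratio of the 6 libraries, at 2.09.

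**Figure D2:**
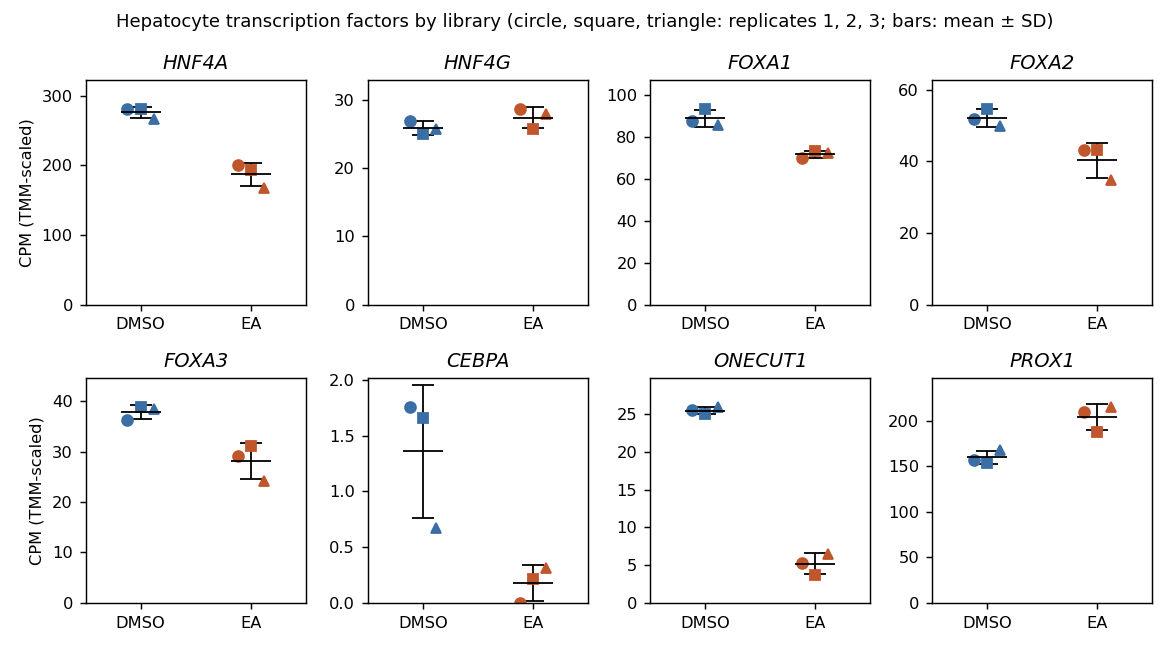
Level of each hepatocyte transcription factor in CPM after TMM scaling (vertical axes start at 0 and differ between panels) in the 3 DMSO and 3 EA libraries; points are libraries, bars the mean ± SD. EA libraries lie below all DMSO libraries in HNF4A, the FOXA genes, CEBPA and ONECUT1, lie above them in PROX1, and overlap them in HNF4G.

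ONECUT1 (ENSG00000169856) binds DNA through a cut domain and a homeodomain and acts upstream of HNF4A and FOXA2 in the developing liver. It showed the clearest change of the 8 genes. Levels were 25.5, 25.01 and 25.9 CPM with DMSO (SD 0.453) and 5.35, 3.71 and 6.50 CPM with EA. The libraries of the groups lay far apart, and the level fell by 79.6% (log2 fold change -2.30, SE 0.15, 95% interval -2.61 to -1.98, adjusted p = 2.13e-09 by edgeR), and 5.09% of tested genes had a lower log2 fold change. At least 2-fold lower and called were 21.5% of all tested genes. The paralogue ONECUT2 fell less, from 100.1 ± 3.67 to 64.2 ± 7.35 CPM (n = 3 per group), a log2 fold change of -0.64 (SE 0.08).

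CEBPA (ENSG00000245848) holds back proliferation and drives genes of gluconeogenesis and the urea cycle in the adult liver. It had few reads in this table: 45, 38 and 17 with DMSO and 0, 4 and 6 with EA. The settings for strand and overlapping genes in the counting are not given, and whether reads of CEBPA were lost there was not tested, so its levels, its rank among the 8 genes and its fold change describe this table. In CPM these are 1.75, 1.65 and 0.668 with DMSO and 0, 0.212 and 0.317 with EA, where a count of 0 in EA replicate 1 allows up to 0.187 CPM (3 reads). The groups did not overlap, but DMSO replicate 3 lay nearer to the EA libraries than the other 2 did. The ratio of summed reads, scaled for library size, was 0.138 (95% exact binomial interval 0.0640 to 0.264, which covers counting error only). The fitted log2 fold change was -2.83 (SE 0.60, 95% interval -4.15 to -1.52, adjusted p = 0.000891 by edgeR). Without EA replicate 3 it was -3.52. The RefSeq promoter window of CEBPA shares 214 bases with that of the divergent gene CEBPA-AS1, which lies on the other strand.

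PROX1 (ENSG00000117707) is needed for hepatoblasts to migrate and expand and restrains bile acid synthesis. Of the 8 genes it was the only gene called higher: 157, 154 and 168 CPM with DMSO became 210, 188 and 215 CPM with EA. All EA libraries were above all DMSO libraries. The log2 fold change was 0.35 (SE 0.07, 95% interval 0.20 to 0.50, adjusted p = 0.000247 by edgeR), a rise to 1.28 times the DMSO level. PROX1 is also the master factor of lymphatic endothelium. Of 6 endothelial markers, not all particular to lymphatic vessels, 5 were matched and 2 were tested. Both were higher (LYVE1 from 2.33 to 10.7 CPM, VWF from 1.07 to 3.14 CPM). Called higher were 40.5% of all tested genes. PDPN had 0 reads in all libraries. FLT4, which was below the filter, had 0 reads in each DMSO library and 4, 4 and 3 reads in the EA libraries, so it too was higher in every EA library. The summed level of the list was 3.13 to 3.70 CPM with DMSO and 12.2 to 15.2 CPM with EA, far under that of PROX1, and its part in the PROX1 result was not tested.

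Per kilobase of exon, the order of the 8 genes differed between the groups. With DMSO the levels in CPM per kilobase of exon (RPKM, computed here with exon lengths of GENCODE 29) were 37.7 ± 1.12 for HNF4A, 22.3 ± 0.982 for FOXA1, 20.01 ± 0.933 for FOXA2, 17.9 ± 0.829 for PROX1 and 17.3 ± 0.615 for FOXA3 (SD, n = 3). ONECUT1 followed at 6.62 ± 0.118, HNF4G at 5.38 ± 0.204 and CEBPA at 0.516 ± 0.228 RPKM. Only PROX1 and FOXA3 overlapped among neighbours in that order. With EA the order was HNF4A (25.6 ± 2.30), PROX1 (22.9 ± 1.59), FOXA1 (18.03 ± 0.423), FOXA2 (15.5 ± 1.88), FOXA3 (12.9 ± 1.63), HNF4G (5.70 ± 0.324), ONECUT1 (1.35 ± 0.364) and CEBPA (0.0670 ± 0.0614 RPKM). Here HNF4A overlapped PROX1 and FOXA2 overlapped FOXA3. PROX1 was in the fourth place with DMSO and in the second with EA, and ONECUT1 was above HNF4G with DMSO and below it with EA.

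Long non-coding genes lie beside several of these loci, and 3 of the 4 described here were lower with EA (40.5% of all tested genes were). LINC00261, which starts 2362 bases from the 3′ end of FOXA2 on the same strand in GENCODE 29, had 93.9, 89.9 and 91.7 CPM with DMSO and 17.99, 15.2 and 18.6 CPM with EA (log2 fold change -2.41, SE 0.09). It had 1.77 ± 0.105 reads per FOXA2 read with DMSO and 0.435 ± 0.0934 with EA (n = 3 per group). The mean log2 ratio with EA minus that with DMSO was -2.04 (exact permutation test, two-sided p = 0.10, the smallest possible). The ratio was lower in every EA library than in every DMSO library.

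HNF4A-AS1, which runs against HNF4A within its locus, had 14.2, 14.8 and 11.4 CPM with DMSO and 6.53, 3.66 and 3.44 CPM with EA (log2 fold change -1.59, SE 0.21). Its reads per HNF4A read went from 0.0488 ± 0.00527 to 0.0240 ± 0.00750 (n = 3 per group; exact permutation test, two-sided p = 0.10). CEBPA-AS1, named CEBPA-DT in later annotation, had 184 reads in the DMSO group and 38 in the EA group (log2 fold change -1.80, SE 0.29). PROX1-AS1 did not pass (log2 fold change -0.52, SE 0.28, adjusted p = 0.0975 in edgeR's test, and 0.00959 without EA replicate 3). Because the strand setting is not given, reads of HNF4A-AS1 and PROX1-AS1 where they overlap their partners cannot be told apart from the partners' own.

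**Figure D3:**
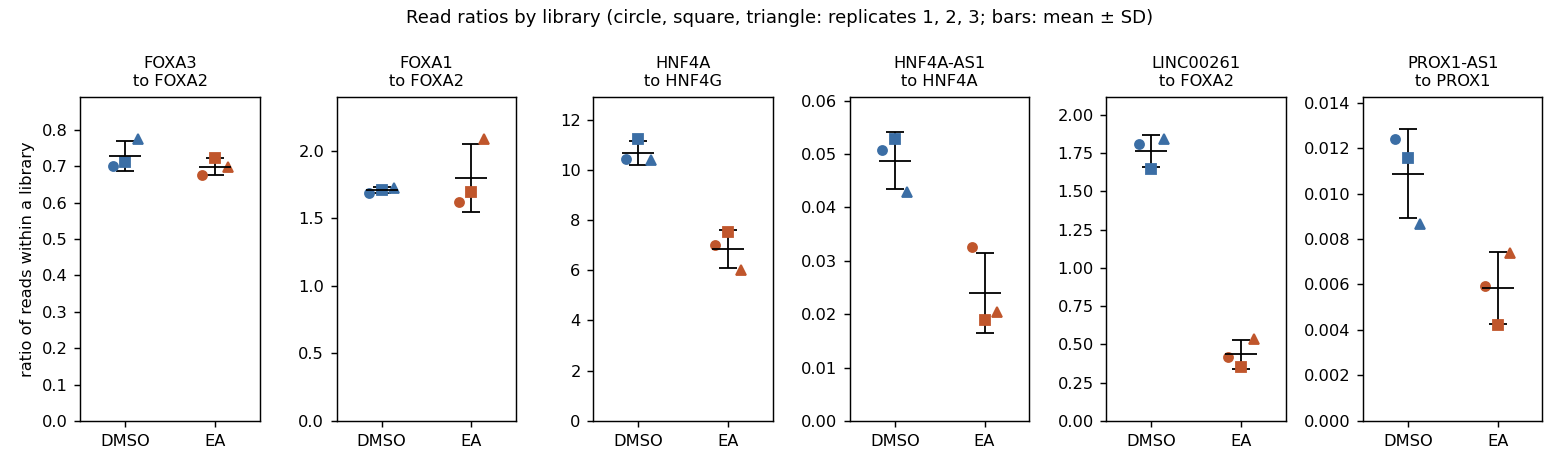
Ratio of the reads of 2 genes within each library (vertical axes start at 0 and differ between panels) for 3 pairs of related factors and 3 pairs of a non-coding gene and its neighbour; points are libraries, bars the mean ± SD. The 2 FOXA ratios overlap between the groups, and the other 4 ratios are lower in every EA library than in every DMSO library.

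Other liver transcription factors moved mostly in the same direction. All 18 genes described from this list were tested, and 11 were lower, 3 higher and 4 not called (median log2 fold change -0.66). Among all tested genes the shares were 40.5% lower and 40.5% higher. HHEX, an early liver homeobox factor, had a log2 fold change of -1.67 (SE 0.09) and XBP1, a factor of the secretory pathway, went from 409 ± 10.01 to 80.2 ± 8.19 CPM. The bile acid receptor gene NR1H4, which passed the filter only through DMSO, was at 24.0, 22.3 and 24.0 CPM and then at 0.0622, 0.106 and 0.423 CPM. Its log2 fold change of -6.80 was -8.02 without EA replicate 3. The higher genes included TBX3, a T-box repressor of the liver bud, from 171 ± 8.67 to 354 ± 12.8 CPM, and the acute-phase factor CEBPB (log2 fold change 0.32, adjusted p = 0.0166 in edgeR's test), whose call was lost without DMSO replicate 1 (0.0981) or DMSO replicate 3 (0.0846).

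Most of the tested genes known as targets of these factors were lower with EA, where 40.5% of all tested genes were lower and 40.5% higher. The medians below include targets that passed the filter only through DMSO, and no test compared targets with factors. Of 18 HNF4A targets 16 were tested, 14 were lower, 1 higher and 1 not called, with a median log2 fold change of -2.40, where HNF4A itself was at -0.56. The renin substrate AGT went from 1214 ± 40.3 to 113 ± 5.82 CPM, the lipoprotein assembly factor MTTP from 124 ± 9.55 to 9.20 ± 0.765 CPM, APOA2 from 2147 ± 116 to 371 ± 23.9 CPM and the lipase inhibitor APOC3 from 20.8 ± 3.26 to 0.937 ± 0.210 CPM. APOA1 was the higher member, at 1143, 1108 and 1002 CPM with DMSO and 1362, 1655 and 1124 CPM with EA. Its groups overlapped, and its call (adjusted p = 0.0276 in edgeR's test) was lost without DMSO replicate 2 (0.0739), DMSO replicate 3 (0.127), EA replicate 1 (0.0826) or EA replicate 2 (0.0678). F9 had 0 reads in all libraries and OTC was below the filter, and 3 of the 16 passed only through DMSO.

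Of 9 FOXA targets 7 were lower, 1 higher and 1 not called (median -1.89), beside 40.5% lower and 40.5% higher over all tested genes. The urea cycle enzyme CPS1 went from 47.4 ± 0.406 to 12.7 ± 1.23 CPM, the fetal serum protein gene AFP from 4405 ± 250 to 1295 ± 135 CPM and albumin (ALB) from 8430 ± 517 to 3702 ± 187 CPM. IGFBP1, a secreted IGF-binding protein whose gene also answers to other signals, rose instead from 404 ± 14.8 to 2309 ± 218 CPM. Of 9 CEBPA targets 6 were tested, 5 were lower and 1 was not called (median -1.92, where CEBPA itself was at -2.83). The iron hormone HAMP, which passed only through DMSO, went from 13.7 ± 1.07 to 0.189 ± 0.0741 CPM, and the glucose-6-phosphatase gene G6PC had a log2 fold change of -2.22 (SE 0.50, and -3.34 without EA replicate 3). The 3 target lists share genes such as ALB, APOB, PCK1 and G6PC, so their counts are not separate observations.

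**Figure D4:**
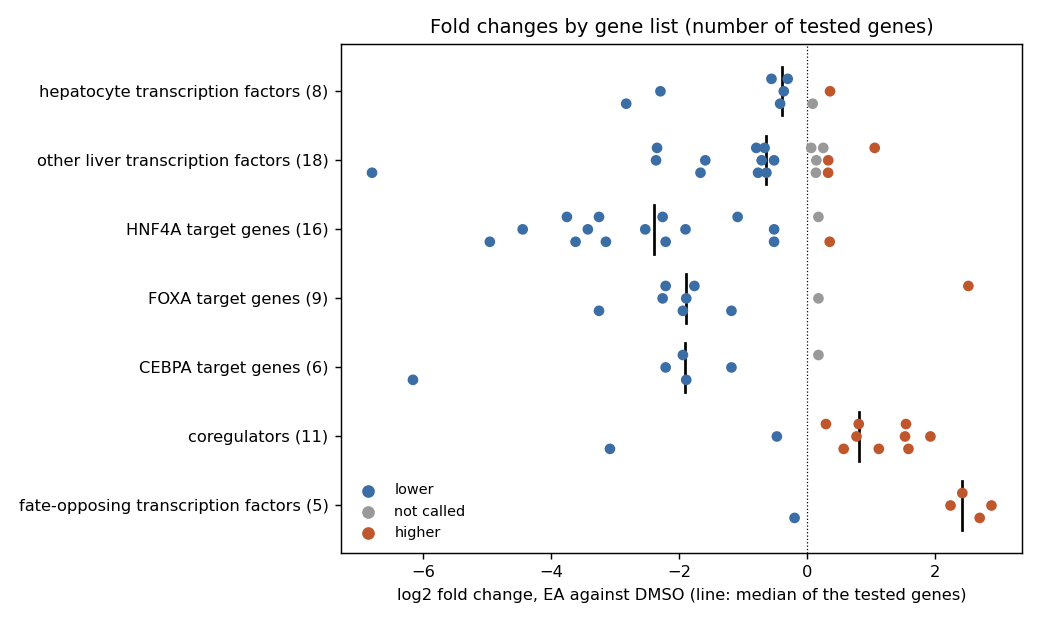
Log2 fold change, EA against DMSO, of every tested gene (point) in the 8 hepatocyte transcription factors and 6 related lists, coloured by the call at an adjusted p of 0.05, with the median as a line. Medians of the 3 target lists lie between -2.40 and -1.89, that of the 8 factors at -0.40 and that of coregulators at 0.80; 2 of the 5 fate-opposing factors drawn passed the filter only through EA.

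Genes of coregulators, the proteins through which such factors act on transcription, were mostly higher with EA. Of 11 coregulator genes 9 were higher and 2 lower (median log2 fold change 0.80), against 40.5% higher and 40.5% lower over all tested genes. The coactivator NCOA3 went from 228 ± 6.08 to 864 ± 16.7 CPM, the acetyltransferase CREBBP from 131 ± 5.39 to 391 ± 17.8 CPM and the Mediator subunit MED1 from 160 ± 2.48 to 460 ± 31.2 CPM. PPARGC1A, the fasting-induced coactivator of HNF4A in gluconeogenesis, fell from 53.4 ± 2.59 to 6.30 ± 0.784 CPM (log2 fold change -3.09, SE 0.10), and NCOA2 had a log2 fold change of -0.48 (SE 0.07).

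Of 6 transcription factors known to oppose the epithelial or hepatocyte state, 3 passed the filter in both groups, and of these SNAI1 and ZEB1 were higher and SOX9 lower with EA. TWIST1 had 0 reads in all libraries. Over all tested genes 40.5% were called higher and 40.5% lower. SNAI1, a repressor that can silence HNF4A, went from 5.87 ± 0.747 to 31.5 ± 5.65 CPM and ZEB1 from 38.5 ± 1.67 to 182 ± 6.15 CPM. SNAI2 and ZEB2 were called higher too, with log2 fold changes of 2.88 and 2.69 from 9 and 23 reads over the DMSO libraries, but they passed the filter only through EA and could be tested only because they were high there. The biliary factor SOX9 fell slightly, from 276 ± 12.2 to 240.0 ± 3.41 CPM (log2 fold change -0.20), a call that was lost when the change had to exceed 1.2-fold (adjusted p = 0.656 in edgeR's test).

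Marker lists of other cell types were all low beside that of hepatocytes, and the biliary list had the highest sum among them. The 5 biliary markers summed to 2019 to 2054 CPM with DMSO and 1835 to 2039 CPM with EA, with KRT19 higher and SOX9, EPCAM and SPP1 lower. KRT7, which was below the filter, had 0, 2 and 0 reads with DMSO and 4, 5 and 7 with EA. The 4 macrophage markers summed to 1.57 to 2.02 and 2.01 to 2.18 CPM, with CD68 and PTPRC at 0. The other 2 moved in opposite directions: CSF1R was higher with EA, from 0.109 to 1.85 CPM (log2 fold change 4.02, 8 and 99 reads), and CD14 was lower, from 1.66 to 0.215 CPM (log2 fold change -2.88). CSF1R passed the filter only through EA and CD14 only through DMSO. The 4 stellate and mesenchymal markers summed to 15.70 to 16.5 and 4.61 to 6.39 CPM, with DCN at 0 and PDGFRB making up most of the rest. The 6 pancreatic and intestinal markers stayed under 0.701 CPM in sum.

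Genes whose pattern was most like that of HNF4A were sought among 9130 others with a mean of at least 10 CPM, by the Euclidean distance of log2 CPM, centred on the DMSO mean, over the 6 libraries. The nearest 5 were NDUFC1 (distance 0.0695), a subunit of respiratory complex I, BTBD2 (0.0796), MCRIP1 (0.0865), AP2A2 (0.0890), a subunit of the clathrin adaptor, and GINS3 (0.0902), a part of the replicative helicase, where the median distance was 1.43. Their log2 fold changes ran from -0.59 to -0.56. With only 2 groups such likeness rests mainly on the size of the fall, and none of the 5 is a hepatocyte transcription factor.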

How the data were processed

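RNA of 6 HepG2 libraries was measured by paired-end sequencing. The authors deposited raw counts, whole reads per gene with no normalisation. The build was hg19, and the tools included HTSeq 0.6.1, HISAT, cutadapt 1.9.1 and bcl2fastq 2.17.1.14, per the submitters' processing notes. Annotation release and strand setting: not given in the sources used here. Counts of overlapping and antisense genes are therefore uncertain.

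From the counts, filterByExpr kept 15648 of 52408 genes (at least about 0.474 CPM in 3 libraries), TMM gave the scaling factors, and the quasi-likelihood F test of edgeR 4.0.16 (R 4.3.3, robust) compared the groups, with Benjamini-Hochberg adjusted p-values over all tested genes. The common biological coefficient of variation was 7.96%. The SE is the log2 fold change over the square root of F. Read ratios were compared by exact permutation of libraries; 3 ratios were planned and 3 added later. The test was tried on simulated counts with 50 genes changed at each of 1.5-, 2-, 4- and 8-fold. It recovered 29, 39, 49 and 50 of them, so it missed many small changes. It also called 25 genes that had not been changed, among 15267 tested in the trial. Far fewer genes changed there than were called here, so the trial cannot show how scaling and error rates behave when most genes change.

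The 8 genes and all lists were chosen with earlier results of these data known, and the motifs after their promoters and values had been read. Named genes are the 8, neighbouring non-coding genes, up to 4 called genes with the smallest p per list and up to 2 that moved against a list's majority, and the 5 genes nearest to HNF4A; markers, ONECUT2 and genes without reads were named outside this rule after their values were seen. PECAM1 had no match by symbol (not analysed here), and some genes of the lists are not reported here. Promoter sequences are RefSeq's on GRCh38.p14, another build than the files', and 5 of the 8 genes had an entry. Exon lengths are from GENCODE 29. The exact binomial interval of CEBPA and the floors (3 reads) describe counting error alone. PCR copies could not be told from independent molecules. Intervals of fold changes rest on the SE from edgeR and so include the spread among libraries. Alternatives were DESeq2 1.42.0, limma-voom (limma 3.58.1), other scalings, filters and thresholds, a replicate block, and each library left out.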

Additional observations from a re-analysis of the deposited data

How the results depend on the processing

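The number of the 8 transcription factors called was 7 under 15 alternatives, 6 with a filter of 1 CPM in 3 libraries (CEBPA was not tested) and 5 with a minimum fold of 1.2. Over all genes 11130 to 14923 were called, against 12680, and 12302 to 13613 with a library left out. HNF4A, FOXA3, ONECUT1 and PROX1 kept direction and call under all 17 alternatives and CEBPA under all 16 that tested it. Log2 fold changes ran from -0.69 to -0.52 for HNF4A, -2.53 to -2.11 for ONECUT1, -3.52 to -2.34 for CEBPA and 0.22 to 0.40 for PROX1. HNF4G turned to -0.049 with no filter (adjusted p = 0.687, edgeR) and was not called under any. Of 594 values of 35 other named genes, 11 lost and 2 gained the call and 0 reversed. The FOXA1 to FOXA2 log2 difference was 0.07 and ran from -0.044 to 0.14 with a library left out, the negative value being that without EA replicate 3; the cause was not tested. Those of FOXA3 to FOXA2 and HNF4A to HNF4G ran from -0.09 to -0.01 and from -0.72 to -0.56.

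The labels do not state whether same-numbered libraries belong together. Their deviations from the group means correlated at -0.08, 0.03 and -0.02, and not every library correlated best with its own number. With 3 libraries per group this cannot settle whether they were paired. With the replicate number as a block, 12537 genes and 7 of the 8 factors were called, and the log2 differences of the 3 planned ratios were -0.06, 0.07 and -0.65. CEBPA had the fewest reads of the 8 genes, 100 over the DMSO and 10 over the EA libraries.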
